A study of Rattus norvegicus with 24 samples.

Results

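The 98 genes described here stood above Control after 6 h with both BMS-21 and GLP-1 in INS-1 cells, and lay close to Control after 1 h. INS-1 cells come from a rat tumour of insulin-producing cells, and stand in for beta cells in the laboratory. The genes were chosen from 26404 features by the measured values themselves. With each agent the log2 ratio of the mean normalised count plus 1 to that of Control had to be at least 0.7 at 6 h and within 0.3 of 0 at 1 h, with a mean of at least 20 normalised counts over the 8 libraries of each 6 h comparison. At 6 h 430 features passed the ratio, 197 of them the level and 111 of those the limit at 1 h. Of these, 13 were left out by symbol (the Dusp, Spry, Pde, Rgs, Cacn, Kcn, Klf and Ccnd families and 12 single genes such as Camk4, Oxtr and Vgf). Of the other 86 features past the ratio and the level, 83 were above the 1 h limit with at least 1 agent and 3 below it. Of the 98 genes 88 carried a symbol, and the 10 that the tables give by identifier alone are counted but not named. These contrasts with Control chose the genes, so their values are given as a description and without a test.

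The study set 4 libraries in each of 6 groups, namely BMS-21, GLP-1 and Control at 6 h and the same at 1 h. All cells were held for 90 min in medium with 3 mM glucose and then moved to fresh medium with 11 mM glucose, so Control cells went through the same change of medium. BMS-21, a compound known here by its code name only, was given at 1 µM, GLP-1 (glucagon-like peptide 1) at 100 nM, and Control cells had DMSO, the vehicle. The labels do not say whether the 4 libraries of a group came from separate cultures, and a p-value here covers the spread among the libraries, which may be technical.

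GLP-1 is a gut hormone that binds a receptor of the beta cell coupled to the stimulatory G protein. The receptor raises cAMP, which activates protein kinase A and the cAMP-binding protein EPAC, and strengthens insulin secretion when glucose is high. Protein kinase A phosphorylates CREB, and the first genes to respond are immediate early genes, which need no new protein. Genes that respond later commonly depend on the products of the first ones or on slower changes in the cell. In beta cells cAMP is known to support insulin synthesis, survival and the excitability of the membrane.

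The libraries held 10667350 to 13148970 reads assigned to genes, and 3 reads corresponded to 0.228 to 0.281 CPM (counts scaled to a fixed library total), a floor that covers counting error only. The lowest value of any of the 98 genes in any library was 4 reads, in Sema3a and in Fam65c. Of 15 beta-cell markers, 12 had a row and all 12 were detected in all 24 libraries, with Ins1 at 8618 to 11711 CPM. The beta-cell markers summed at 6 h to 17127 to 19924 CPM with BMS-21, 16816 to 17949 CPM with GLP-1 and 15856 to 16684 CPM in Control. The sum of 22 markers of other cells, most of it Pdgfra and Gcg, was at 6 h 27.7 to 30.8 CPM with BMS-21, 26.0 to 28.5 CPM with GLP-1 and 25.0 to 26.4 CPM in Control, and at 1 h 44.0 to 47.8 CPM with BMS-21, 40.8 to 46.8 CPM with GLP-1 and 35.4 to 43.9 CPM in Control. Of these 22 markers, Pdgfra (10.1 to 32.1 CPM), Gcg (6.58 to 14.1 CPM), Sox9 (1.14 to 5.54 CPM), Ghrl (up to 2.39 CPM) and Cftr (0.268 to 1.24 CPM) had 3 reads or more in all 24 libraries, Col1a2 in 22 and Cd68 in 21. The other 15, among them Irx2, Sst, Cela1, Pdgfrb, Cdh5 and Ptprc, had 3 reads in at most 2 libraries. The part of these markers in the results below was not tested. In RNA from whole cultures, a change per cell and a change in the share of cells that express a gene cannot be told apart.

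Across all features with a mean of at least 20 in both 6 h comparisons, 1.66% reached the ratio of 0.7 with both agents, 2.05% with BMS-21 and 1.89% with GLP-1 in the comparison of each. The median log2 ratio of the 98 genes to Control at 6 h was 0.99 with BMS-21 (from 0.71 to 1.85) and 0.93 with GLP-1 (from 0.70 to 1.93), and at 1 h it was 0.05 with BMS-21 and 0.06 with GLP-1. Over all 11837 features the medians were 0.00 with both agents at both times. At 6 h every BMS-21 library lay above every Control library in 98 of the 98 genes, as it did in 16.9% of all features, and every GLP-1 library lay above every Control library in 97 of them, as it did in 16.2% of all features. The exception was Sez6l. Since the rule used these contrasts, nothing is read from these shares. At 1 h every BMS-21 library lay above every Control library in 8 of the 98 genes by normalised count and in 7 by CPM, as in 5.64% of all features by normalised count. Every GLP-1 library did in 7 of them on either scale, as in 6.14% of all features. By CPM, Tor1b, Mllt11 and Cd200 were among these with both agents.

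**Figure D1:**
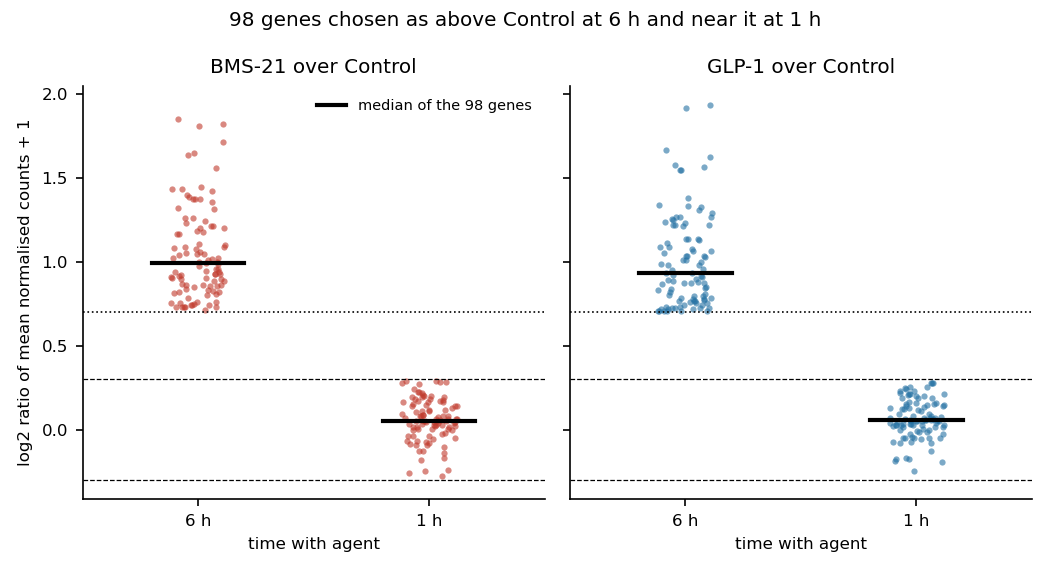
Each point is 1 of the 98 genes, the y axis is the log2 ratio of the mean normalised count plus 1 with the agent to that in Control (4 libraries each), black bars are medians, the dotted line is the limit of 0.7 and the dashed lines are the limits of 0.3 above and below 0. At 6 h all points lie above 0.7 with medians of 0.99 for BMS-21 and 0.93 for GLP-1, and at 1 h all lie within the dashed lines, both by the choice of the genes.

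The edge of the set is not a natural gap. Just inside it by the smaller of the agents' ratios were a gene without a symbol (0.70), Cd200 (0.71) and Adamts14 (0.71), and just outside were Dscam (0.70), Rab3ip (0.70) and Pon2 (0.70), which fell short of 0.7 in the third decimal. The ratios were also taken within replicates 1 and 2 and within replicates 3 and 4. In replicates 1 and 2 alone 92 of the 98 genes kept a ratio of at least 0.7 with BMS-21 and 86 with GLP-1 at 6 h, and in replicates 3 and 4 alone 89 did with BMS-21 and 90 with GLP-1. The 1 h limit of 0.3 was met in replicates 1 and 2 by 86 genes with BMS-21 and 89 with GLP-1, and in replicates 3 and 4 by 87 with BMS-21 and 89 with GLP-1. The whole rule was met by 67 of the 98 genes in replicates 1 and 2 alone and by 73 in replicates 3 and 4 alone. These libraries chose the genes, so the counts describe how the set depends on them and are no independent check.

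For 66 of the 88 genes with a symbol RefSeq gave a promoter on build GRCr8, from 250 bases before the start of the gene to 50 after it. The full CRE, the palindrome TGACGTCA that CREB binds, was searched on both strands because GLP-1 acts through cAMP. It was found in 3 of the 66 promoters (4.55%), in 3.34% of the 8362 promoters of genes tested at 6 h and in 1.91% of all 27457 promoters. These 3 promoters belong to Epha2 (chr5:158888379-158888678, plus strand), Clstn3 (chr4:159051020-159051319, minus strand) and Ppargc1a (chr14:63634058-63634357, plus strand) and are shown because they carry the site. Each is written 5′ to 3′ on the strand of the gene, with the full CRE in capitals.
Epha2 promoter: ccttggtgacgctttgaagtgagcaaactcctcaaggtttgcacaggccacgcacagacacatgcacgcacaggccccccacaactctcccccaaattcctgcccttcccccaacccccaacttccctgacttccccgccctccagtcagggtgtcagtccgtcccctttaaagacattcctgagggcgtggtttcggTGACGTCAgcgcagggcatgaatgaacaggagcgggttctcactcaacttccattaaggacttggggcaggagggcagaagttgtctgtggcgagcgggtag
Clstn3 promoter: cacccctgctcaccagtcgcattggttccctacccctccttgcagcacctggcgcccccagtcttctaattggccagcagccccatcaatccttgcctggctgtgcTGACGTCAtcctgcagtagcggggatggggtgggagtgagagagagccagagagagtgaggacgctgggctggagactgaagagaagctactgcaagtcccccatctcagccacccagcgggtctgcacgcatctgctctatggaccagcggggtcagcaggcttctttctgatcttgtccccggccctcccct
Ppargc1a promoter: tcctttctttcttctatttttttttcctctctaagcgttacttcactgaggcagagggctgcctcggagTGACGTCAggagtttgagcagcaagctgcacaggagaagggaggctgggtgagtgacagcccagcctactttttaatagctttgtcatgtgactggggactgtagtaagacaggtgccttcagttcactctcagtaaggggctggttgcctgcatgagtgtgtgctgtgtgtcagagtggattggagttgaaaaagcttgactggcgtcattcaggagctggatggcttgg
The site begins 52 bases before the start of the gene in Epha2, 144 bases before it in Clstn3 and 181 bases before it in Ppargc1a. The shorter CRE TGACG, which every full CRE also contains, was in 14 of the 66 promoters (21.2%), in 32.8% of the promoters of tested genes and in 22.0% of all promoters. The AP-1 motif TGANTCA was in 5 (7.58%), in 4.40% of those of tested genes and in 7.33% of all. The NR4A motif AAAGGTCA was in 1 (1.52%), in 0.849% of those of tested genes and in 1.29% of all. The E-box CACGTG was in 0, in 9.45% of those of tested genes and in 6.65% of all. The median GC content was 61.7% in the 66 promoters and 61.7% in those of the tested genes. A match is a run of letters and not a measured binding site, and a promoter without one may carry another form of the motif or a site elsewhere.

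Of the 98 genes 73 were placed in 8 groups by what their products do, after their values were known. In each group the text gives the level in CPM, scaled over all 24 libraries, in replicates 1 to 4 in that order, or the mean ± SD of the 4 libraries. Log2 ratios to Control are those of the deposited normalised counts plus 1, which understate the change of genes with few reads, and folds are ratios of mean CPM.

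The 7 secreted ligands and their antagonists had a median log2 ratio to Control at 6 h of 1.01 (from 0.90 to 1.81) with BMS-21 and 0.98 (from 0.78 to 1.91) with GLP-1. Sema3a (ENSRNOG00000023337), a semaphorin that repels growing axons and vessels, had 3.40, 2.28, 3.16 and 2.79 CPM with BMS-21, 2.98, 2.76, 3.33 and 3.43 CPM with GLP-1 and 0.305, 0.831, 0.889 and 1.06 CPM in Control at 6 h. All 12 libraries at 1 h lay at 2.73 to 4.65 CPM. The agents at 6 h overlapped that range and Control at 6 h lay below it. The ratio to Control was 3.76-fold with BMS-21 and 4.05-fold with GLP-1. Hhip, which binds Hedgehog ligands and holds them back, had 5.06, 4.48, 4.07 and 5.34 CPM with BMS-21, 4.80, 5.61, 4.68 and 6.60 CPM with GLP-1 and 2.14, 2.33, 2.10 and 2.13 CPM in Control at 6 h. All its libraries at 6 h, with or without an agent, lay below all those at 1 h (9.30 to 16.4 CPM).
Sct encodes secretin, a gut hormone whose receptor belongs to the same family as the GLP-1 receptor, and had 17.5, 20.7, 15.2 and 15.1 CPM with BMS-21, 21.4, 23.9, 16.3 and 17.0 CPM with GLP-1 and 8.54, 8.31, 8.25 and 7.86 CPM in Control at 6 h. All 12 libraries at 1 h lay at 2.68 to 4.52 CPM, so that every group was higher at 6 h than at 1 h, and those with an agent were the highest. Metrnl, a secreted factor of muscle and fat, averaged 22.7 ± 1.31 CPM with BMS-21, 21.6 ± 1.15 with GLP-1 and 11.8 ± 2.21 in Control at 6 h. Nrn1, which encodes neuritin, a membrane-anchored factor of neurite growth, averaged 12.9 ± 1.13 CPM with BMS-21, 12.5 ± 0.756 with GLP-1 and 6.34 ± 1.03 in Control. Wnt4, a secreted Wnt ligand, had 168, 169.8, 219.7 and 206 CPM with BMS-21, 169, 161, 181 and 175 CPM with GLP-1 and 99.6, 94.6, 104 and 98.5 CPM in Control at 6 h. Igfbp4, which binds insulin-like growth factors, had 65.9, 57.7, 132 and 92.4 CPM with BMS-21, 77.6, 65.7, 85.9 and 89.4 CPM with GLP-1 and 44.2, 38.7, 54.6 and 48.4 CPM in Control at 6 h, and replicate 3 with BMS-21 was the highest. In Wnt4 and Igfbp4 every agent library at 6 h lay above every Control library.

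The 8 proteins of the matrix, the plasma and processing outside the cell had a median of 1.07 (from 0.73 to 1.56) with BMS-21 and 1.15 (from 0.71 to 1.56) with GLP-1. Adamts9 (ENSRNOG00000023257), a secreted metalloprotease that cuts proteoglycans, had 12.5, 11.5, 8.23 and 12.4 CPM with BMS-21, 10.4, 11.6, 12.1 and 10.6 CPM with GLP-1 and 4.12, 4.24, 3.72 and 2.87 CPM in Control at 6 h. The 12 libraries at 1 h lay at 1.71 to 3.15 CPM. The lowest agent value, replicate 3 with BMS-21, was still above every Control library, and the ratio to Control was 2.99-fold with BMS-21 and 2.99-fold with GLP-1. Ecel1 (ENSRNOG00000019447), a membrane metalloprotease best known from neurons, had 8.21, 8.74, 7.07 and 7.33 CPM with BMS-21, 7.45, 8.20, 6.58 and 7.13 CPM with GLP-1 and 2.59, 3.16, 3.31 and 2.38 CPM in Control at 6 h. Its libraries at 1 h ran from 3.24 to 4.76 CPM, and the agents did not overlap Control at 6 h, where the ratio was 2.74-fold with BMS-21 and 2.57-fold with GLP-1.
The most abundant of the 98 genes was Fn1, fibronectin, the matrix protein that integrins bind. It had 1218, 1311, 1358 and 1393 CPM with BMS-21, 1201, 1235, 1228 and 1291 CPM with GLP-1 and 680.1, 710.3, 685 and 679 CPM in Control at 6 h. The ratio to Control was 1.92-fold with BMS-21 and 1.80-fold with GLP-1, and the groups with an agent lay far above Control relative to their spread. Fgb, the beta chain of fibrinogen, averaged 33.4 ± 8.39 CPM with BMS-21, 33.4 ± 3.79 with GLP-1 and 13.9 ± 1.06 in Control. PCOLCE2, a helper of procollagen processing, averaged 6.14 ± 0.866 CPM with BMS-21, 6.93 ± 0.764 with GLP-1 and 2.85 ± 0.415 in Control, and Pcsk5, a proprotein convertase, 14.1 ± 0.496 CPM with BMS-21, 13.8 ± 0.964 with GLP-1 and 6.73 ± 1.16 in Control. Adamts14, a procollagen protease, had log2 ratios of 0.75 with BMS-21 and 0.71 with GLP-1.

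The 10 receptors and adhesion molecules had a median of 0.86 (from 0.73 to 1.40) with BMS-21 and 0.83 (from 0.71 to 1.55) with GLP-1. Epha2 (ENSRNOG00000009222), a receptor kinase for ephrin-A ligands and the first of the promoters shown above, had 7.96, 8.96, 7.98 and 7.65 CPM with BMS-21, 9.61, 10.1, 8.09 and 8.89 CPM with GLP-1 and 4.12, 2.41, 2.91 and 2.95 CPM in Control at 6 h. The 1 h libraries lay at 4.31 to 7.10 CPM. Control at 6 h was the lowest of the 6 groups, and the ratio to it was 2.63-fold with BMS-21 and 2.96-fold with GLP-1. Dner, a membrane protein that binds Notch, averaged 51.9 ± 1.15 CPM with BMS-21, 45.7 ± 2.99 with GLP-1 and 19.7 ± 0.769 in Control. Clstn3, a calsyntenin of synaptic adhesion whose promoter is also shown above, had 339, 339, 345 and 354 CPM with BMS-21, 326, 339, 321 and 314 CPM with GLP-1 and 186, 187, 183 and 177 CPM in Control at 6 h. The agents lay far from Control relative to the spread of the groups, with a ratio of 1.88-fold with BMS-21 and 1.78-fold with GLP-1.
Met, the receptor of hepatocyte growth factor, had 36.0, 39.2, 40.3 and 42.1 CPM with BMS-21, 43.3, 38.7, 41.9 and 46.5 CPM with GLP-1 and 22.6, 21.8, 24.0 and 24.6 CPM in Control at 6 h. All of these lay below the 12 libraries at 1 h (46.7 to 58.6 CPM), with Control lowest. Gucy2c, the guanylate cyclase receptor of the gut peptides guanylin and uroguanylin, was among the most abundant members and averaged 1065 ± 18.0 CPM with BMS-21, 1035 ± 16.9 with GLP-1 and 631 ± 14.1 in Control. Ptprk, a receptor tyrosine phosphatase of cell contacts, averaged 116 ± 10.9 CPM with BMS-21, 102 ± 3.63 with GLP-1 and 60.9 ± 4.73 in Control. The remaining 4 were Tnfrsf12a, the receptor of TWEAK, with log2 ratios of 0.73 with BMS-21 and 0.84 with GLP-1, the photoreceptor cadherin Cdhr1 with 0.80 with BMS-21 and 0.77 with GLP-1, the brain membrane protein Sez6l with 1.16 with BMS-21 and 1.05 with GLP-1 and Cd200, which restrains immune cells, with 0.73 with BMS-21 and 0.71 with GLP-1.

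The 15 kinases and signalling proteins inside the cell formed the largest of the 8 groups, with a median of 1.05 (from 0.85 to 1.85) with BMS-21 and 1.06 (from 0.74 to 1.93) with GLP-1. Sgk2 (ENSRNOG00000033573), a kinase related to Akt, had 2.82, 2.81, 3.24 and 3.75 CPM with BMS-21, 3.98, 3.26, 3.88 and 3.61 CPM with GLP-1 and 0.915, 0.998, 0.485 and 1.23 CPM in Control at 6 h. At 1 h the libraries lay at 0.745 to 1.96 CPM, and the agents at 6 h were above all of them. The ratio to Control was 3.48-fold with BMS-21 and 4.06-fold with GLP-1, the largest of the 98 genes with GLP-1. Camk2d (ENSRNOG00000011589), a subunit of the calcium and calmodulin dependent kinase II, had 100.5, 99.0, 120.2 and 99.1 CPM with BMS-21, 89.4, 93.7, 93.9 and 90.2 CPM with GLP-1 and 25.9, 26.9, 30.6 and 32.8 CPM in Control at 6 h. Its 12 libraries at 1 h lay at 53.8 to 69.7 CPM, so the agents at 6 h were above and Control below all of them, with a ratio to Control of 3.60-fold with BMS-21 and 3.16-fold with GLP-1. Tesc (ENSRNOG00000001128), a calcium-binding protein that resembles calcineurin B, had 52.7, 60.7, 48.0 and 52.0 CPM with BMS-21, 54.2, 53.7, 50.5 and 48.8 CPM with GLP-1 and 20.2, 22.7, 19.1 and 20.4 CPM in Control at 6 h. At 1 h all libraries lay at 13.8 to 19.4 CPM, and all 12 libraries at 6 h were near or above the top of that range, the agents by far.
Pak3, a kinase activated by Rac and Cdc42, averaged 50.8 ± 3.35 CPM with BMS-21, 52.4 ± 2.78 with GLP-1 and 22.3 ± 1.51 in Control at 6 h and 15.3 ± 2.33 CPM with BMS-21, 16.2 ± 1.34 with GLP-1 and 15.0 ± 1.53 in Control at 1 h. Lrrk2, the kinase mutated in familial Parkinson disease, averaged 11.7 ± 0.929 CPM with BMS-21, 9.46 ± 0.493 with GLP-1 and 5.65 ± 0.346 in Control. Cflar, which blocks caspase 8 at death receptors, averaged 16.6 ± 2.78 CPM with BMS-21, 17.3 ± 0.732 with GLP-1 and 9.09 ± 0.829 in Control. The adaptor genes Fyb and Skap1, whose products work together below the T cell receptor, had log2 ratios of 1.20 with BMS-21 and 1.06 with GLP-1 for Fyb, and of 0.99 with BMS-21 and 1.06 with GLP-1 for Skap1. Ratios of the lipid signalling genes were 1.35 with BMS-21 and 1.13 with GLP-1 for Pitpnc1, a phosphatidylinositol transfer protein, and 0.99 with BMS-21 and 0.81 with GLP-1 for the lipid kinase Pik3c2b. The remaining 5 were the death-signalling regulator Tnfaip8 (1.21 with BMS-21 and 1.13 with GLP-1), the scaffold Iqgap2 (1.05 with BMS-21 and 1.07 with GLP-1), the synuclein-binding Sncaip (0.92 with BMS-21 and 0.89 with GLP-1), the PDZ protein Sdcbp2 (0.85 with BMS-21 and 0.88 with GLP-1) and Iqsec3 (0.86 with BMS-21 and 0.76 with GLP-1), an exchange factor for ARF proteins.

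The 11 channels and transporters had a median of 0.87 (from 0.73 to 1.82) with BMS-21 and 0.87 (from 0.72 to 1.62) with GLP-1. Tmem163 (ENSRNOG00000003769), a zinc transporter of vesicles, had 133, 144, 139.7 and 134 CPM with BMS-21, 129, 127, 114 and 108 CPM with GLP-1 and 42.7, 39.2, 37.3 and 36.4 CPM in Control at 6 h. Its libraries at 1 h lay at 84.0 to 93.6 CPM, between the agents and Control at 6 h. The ratio to Control was 3.54-fold with BMS-21 and 3.07-fold with GLP-1. Slc7a11 (ENSRNOG00000010210), the transporter that exchanges cystine for glutamate and feeds glutathione synthesis, had 11.6, 9.57, 15.8 and 17.5 CPM with BMS-21, 9.86, 9.37, 17.8 and 15.2 CPM with GLP-1 and 4.12, 2.83, 5.25 and 5.16 CPM in Control at 6 h. All 12 libraries at 1 h were at 86.7 to 107 CPM. Every group was thus far lower at 6 h than at 1 h, and the ratio to Control at 6 h was 3.14-fold with BMS-21 and 3.01-fold with GLP-1. Slc24a3 (ENSRNOG00000009480), an exchanger of sodium for calcium and potassium, had 58.2, 63.5, 65.7 and 68.1 CPM with BMS-21, 60.3, 66.3, 64.5 and 65.9 CPM with GLP-1 and 24.3, 26.4, 27.8 and 24.1 CPM in Control at 6 h. At 1 h it lay at 27.4 to 33.0 CPM, close to Control at 6 h, with GLP-1 at 1 h below Control at 1 h in every library, and the ratio to Control at 6 h was 2.49-fold with BMS-21 and 2.50-fold with GLP-1.
Scn3a, an alpha subunit of voltage-gated sodium channels, averaged 90.8 ± 3.13 CPM with BMS-21, 91.5 ± 4.65 with GLP-1 and 50.1 ± 1.38 in Control at 6 h. The amino acid carrier Slc7a8 averaged 121 ± 4.12 CPM with BMS-21, 117 ± 4.30 with GLP-1 and 66.1 ± 2.71 in Control. The copper pump Atp7b, whose promoter held the NR4A motif, had log2 ratios of 0.86 with BMS-21 and 0.72 with GLP-1, and the monocarboxylate carrier Slc16a7 of 0.73 with BMS-21 and 0.80 with GLP-1. A gene annotated only as similar to a phospholipid flippase (LOC691889) had 0.79 with BMS-21 and 0.72 with GLP-1.

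**Figure D2:**
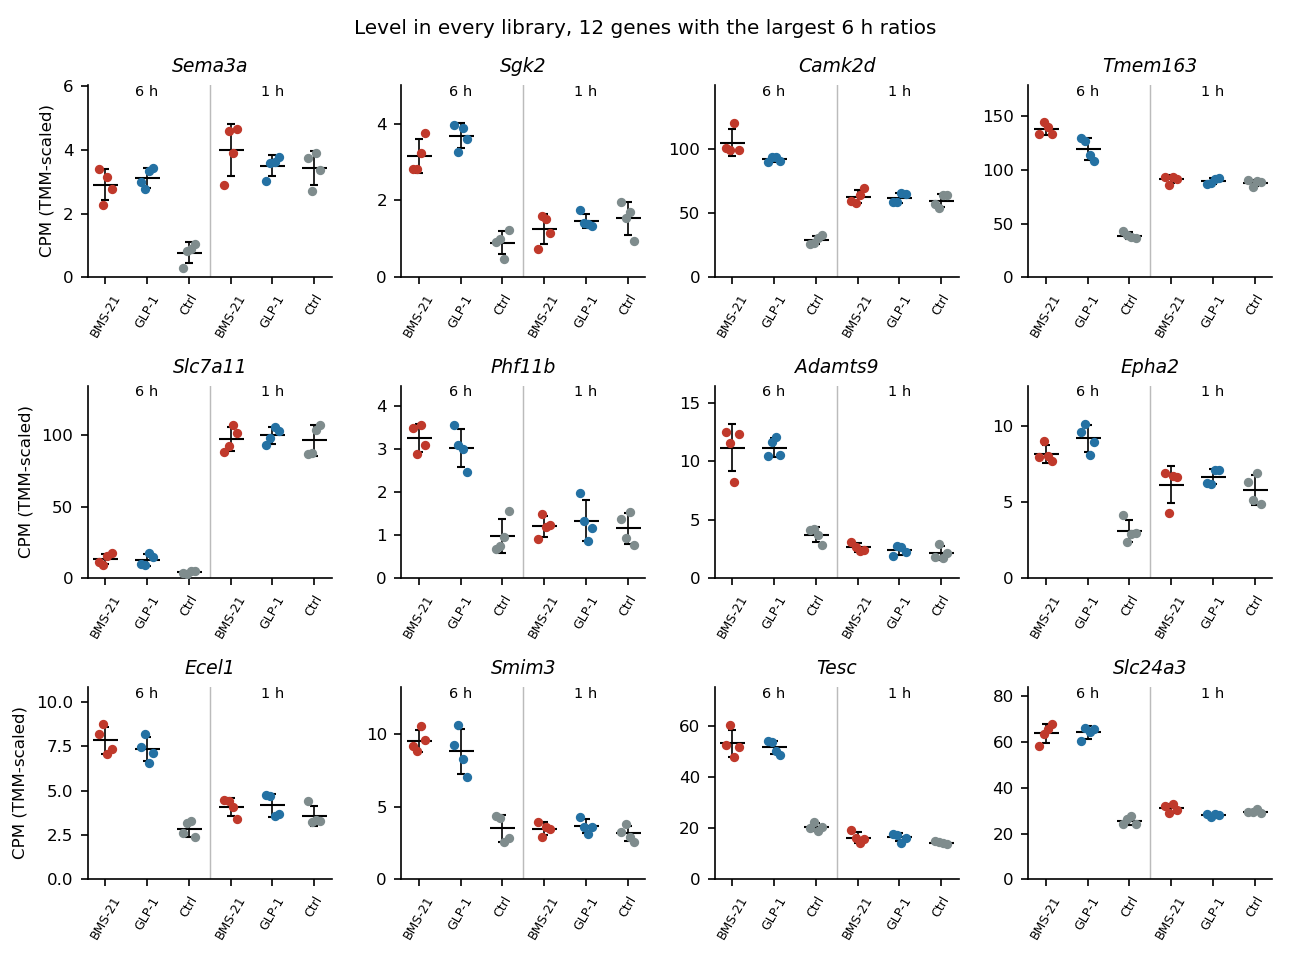
Points are the 4 libraries of a group, the y axis is CPM scaled over all 24 libraries and starts at 0, and horizontal marks with bars are mean ± SD (n = 4). In all 12 genes the BMS-21 (red) and GLP-1 (blue) libraries at 6 h lie above the Control (grey) libraries of that time, while at 1 h neither agent lies wholly above Control in any of them, and in Slc7a11 and Sema3a the means with the agents are lower at 6 h than at 1 h.

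The 10 enzymes of metabolism and glycosylation had a median of 1.01 (from 0.73 to 1.43) with BMS-21 and 1.06 (from 0.73 to 1.23) with GLP-1. Hmox1, heme oxygenase, an enzyme induced by oxidants and heme, had 13.3, 12.8, 29.3 and 25.0 CPM with BMS-21, 10.9, 13.0, 20.8 and 18.5 CPM with GLP-1 and 6.71, 5.82, 9.38 and 7.70 CPM in Control at 6 h. Replicates 3 and 4 were above replicates 1 and 2 in all 3 groups, with the widest gap with BMS-21. St6gal1, which adds sialic acid to glycoproteins, averaged 31.2 ± 2.13 CPM with BMS-21, 29.4 ± 1.34 with GLP-1 and 12.5 ± 1.25 in Control. Qdpr, which regenerates the cofactor tetrahydrobiopterin, averaged 247 ± 9.22 CPM with BMS-21, 252 ± 18.5 with GLP-1 and 124 ± 3.98 in Control, and Tph1, which uses that cofactor in serotonin synthesis, 4.34 ± 0.744 CPM with BMS-21, 4.32 ± 0.396 with GLP-1 and 2.58 ± 0.366 in Control. Man1a1, a Golgi mannosidase that trims N-glycans, averaged 65.2 ± 8.34 CPM with BMS-21, 67.8 ± 1.96 with GLP-1 and 33.2 ± 1.52 in Control. Ugt8, which makes galactosylceramide, averaged 173 ± 7.47 CPM with BMS-21, 176 ± 3.13 with GLP-1 and 103 ± 2.97 in Control. The ratios of the other 4 were 1.17 with BMS-21 and 1.11 with GLP-1 for the cytochrome gene Cyp2s1, 0.90 with BMS-21 and 1.22 with GLP-1 for the carotenoid-cleaving enzyme Bco2, 1.02 with BMS-21 and 1.09 with GLP-1 for carbonic anhydrase Car2 and 1.02 with BMS-21 and 1.03 with GLP-1 for the serine dehydratase homologue Sdsl.

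The 8 transcription and chromatin proteins had a median of 0.92 (from 0.74 to 1.37) with BMS-21 and 0.85 (from 0.73 to 1.21) with GLP-1. Setdb2, a SET domain protein that methylates histones, averaged 26.2 ± 2.04 CPM with BMS-21, 23.4 ± 1.50 with GLP-1 and 10.1 ± 1.85 in Control. Tcf7l2, the effector of Wnt signalling in the nucleus that is known in the beta cell as a diabetes gene, had 7.63, 8.81, 9.48 and 9.00 CPM with BMS-21, 8.45, 7.87, 8.72 and 9.42 CPM with GLP-1 and 5.11, 3.99, 4.77 and 4.34 CPM in Control at 6 h. At 1 h its level was 2.68 to 4.53 CPM, and Control at 6 h overlapped the top of it. Ppargc1a, a coactivator of mitochondrial and gluconeogenic genes and a classic CREB target, whose promoter is shown above, had 10.8, 9.57, 12.3 and 9.48 CPM with BMS-21, 8.70, 9.04, 10.5 and 8.72 CPM with GLP-1 and 4.65, 5.15, 6.63 and 5.82 CPM in Control at 6 h. Its level at 1 h was 10.1 to 16.0 CPM, so Control at 6 h lay below all of them and the agents overlapped their lower end or lay below it. Creb3l2, a transcription factor released from the endoplasmic reticulum, averaged 176 ± 4.68 CPM with BMS-21, 163 ± 6.57 with GLP-1 and 95.3 ± 4.41 in Control, and the ETS factor Etv1 886 ± 14.3 CPM with BMS-21, 877 ± 5.48 with GLP-1 and 530.3 ± 9.69 in Control. The other 3 had log2 ratios of 1.20 with BMS-21 and 1.13 with GLP-1 (the orphan receptor Rorb), 1.09 with BMS-21 and 0.95 with GLP-1 (the LIM protein Lmo1) and 0.83 with BMS-21 and 0.76 with GLP-1 (the clock factor Npas2).

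The 4 cytoskeleton and junction proteins had a median of 0.90 (from 0.83 to 1.21) with BMS-21 and 0.82 (from 0.72 to 0.92) with GLP-1. They were the septin Sept9 (573 ± 28.9 CPM with BMS-21, 548 ± 16.9 with GLP-1 and 318 ± 4.71 in Control), the microtubule protein Eml4 (254 ± 8.32 CPM with BMS-21, 236 ± 7.36 with GLP-1 and 143 ± 3.94 in Control), the tubulin Tubb6 (19.0 ± 1.33 CPM with BMS-21, 17.6 ± 1.57 with GLP-1 and 9.77 ± 0.647 in Control) and the junction protein Cgnl1 (3.97 ± 0.751 CPM with BMS-21, 3.21 ± 0.308 with GLP-1 and 1.67 ± 0.412 in Control). In the 25 genes placed in no group the median was 1.00 (from 0.71 to 1.64) with BMS-21 and 0.93 (from 0.70 to 1.54) with GLP-1. Phf11b (ENSRNOG00000038908), a PHD finger gene, had 3.48, 2.89, 3.58 and 3.11 CPM with BMS-21, 3.56, 3.10, 3.01 and 2.47 CPM with GLP-1 and 0.687, 0.748, 0.970 and 1.56 CPM in Control at 6 h. The 1 h libraries lay at 0.777 to 1.98 CPM, which overlapped Control at 6 h, and the ratio to Control was 3.30-fold with BMS-21 and 3.06-fold with GLP-1. Genes of closely related symbol may share reads with it, so its level is uncertain. RefSeq names 3 protein-coding genes with a Phf11 symbol, of which 2 have a row here, and the other one, Phf11, averaged 1.15 CPM with BMS-21, 0.901 CPM with GLP-1 and 0.222 CPM in Control at 6 h. Smim3 (ENSRNOG00000019536), a small membrane protein, had 9.12, 8.81, 10.6 and 9.56 CPM with BMS-21, 9.19, 10.6, 8.24 and 7.04 CPM with GLP-1 and 4.35, 4.24, 2.59 and 2.87 CPM in Control at 6 h. The 1 h libraries lay at 2.59 to 4.29 CPM, which overlapped Control at 6 h, and the ratio to Control was 2.71-fold with BMS-21 and 2.50-fold with GLP-1. Tor1b, a torsin of the endoplasmic reticulum, averaged 238 ± 9.86 CPM with BMS-21, 221 ± 10.7 with GLP-1 and 116 ± 1.42 in Control, and Cidec, a lipid droplet protein, 15.3 ± 1.42 CPM with BMS-21, 15.2 ± 0.955 with GLP-1 and 6.34 ± 0.981 in Control. Of the rest, Lhfp and Lhfpl2 are related membrane proteins with log2 ratios of 1.24 with BMS-21 and 0.93 with GLP-1 for Lhfp, and of 0.75 with BMS-21 and 0.71 with GLP-1 for Lhfpl2. Log2 ratios of the others were 1.10 with BMS-21 and 1.14 with GLP-1 for Ca10, 1.00 with BMS-21 and 1.01 with GLP-1 for Fam65c, 0.89 with BMS-21 and 1.00 with GLP-1 for Pter and 0.90 with BMS-21 and 0.98 with GLP-1 for Ccdc68. They were 0.84 with BMS-21 and 0.88 with GLP-1 for Mllt11, 0.93 with BMS-21 and 0.71 with GLP-1 for Fam214b and 0.81 with BMS-21 and 0.78 with GLP-1 for Fndc3b, a protein with fibronectin repeats. They were 0.82 with BMS-21 and 0.75 with GLP-1 for Rcbtb2 and 0.82 with BMS-21 and 0.72 with GLP-1 for Ttc39b.

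A difference from Control at 6 h can arise while Control changes, so the levels at 6 h were set against those at 1 h in each arm. The changes are log2 ratios of mean CPM plus 0.1 over 4 libraries. The word "induced" held for 72 of the 98 genes in the sense that their level was more than 0.3 (log2) higher at 6 h than at 1 h with both agents. In the other 26 it was not. With BMS-21 76 genes (77.6%) were more than 0.3 higher, as were 20.3% of all 11837 features, and with GLP-1 72 genes (73.5%) were, as were 19.7% of all. In Control 47 of the 98 genes (48.0%) were more than 0.3 lower at 6 h than at 1 h, 31 were within 0.3 and 20 (20.4%) were more than 0.3 higher. Over all features 16.7% were more than 0.3 lower and 16.5% more than 0.3 higher in Control. Control at 6 h entered the choice of the genes, and a low value there favours a gene, so these shares are a description with no test. The median change from 1 h was 0.75 with BMS-21, 0.67 with GLP-1 and -0.24 in Control, and it lay between 0.01 and 0.02 over all features in each arm.

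The 20 genes that were higher at 6 h in Control, and the 31 that stayed within 0.3, were all more than 0.3 higher with both agents. The limits that chose the genes largely require this, so nothing is read from it. Of these genes, the largest Control change was in Sct, with log2 changes of 2.34 with BMS-21, 2.40 with GLP-1 and 1.32 in Control. Next came Slc16a7, which averaged 17.7 ± 1.87 CPM with BMS-21, 18.5 ± 1.57 with GLP-1 and 10.7 ± 1.40 in Control at 6 h and 6.69 ± 2.17 CPM with BMS-21, 5.79 ± 1.20 with GLP-1 and 5.52 ± 1.14 in Control at 1 h, and Ca10, a catalytically inactive relative of carbonic anhydrase, which averaged 3.59 ± 0.905 CPM with BMS-21, 3.67 ± 0.791 with GLP-1 and 1.63 ± 0.335 in Control at 6 h and 0.903 ± 0.141 CPM with BMS-21, 0.977 ± 0.270 with GLP-1 and 0.894 ± 0.344 in Control at 1 h. Pak3, Adamts9, Tnfaip8, Wnt4, Tcf7l2 and Tesc were also higher at 6 h than at 1 h in Control.

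Of the 47 genes that were lower at 6 h in Control, 21 were more than 0.3 higher with both agents, 14 were within 0.3 with both and 6 were more than 0.3 lower with both. The remaining ones fell into different classes with BMS-21 and with GLP-1. Camk2d and Tmem163 were of the first kind, higher than at 1 h with the agents and lower in Control. Their log2 changes were 0.74 with BMS-21, 0.57 with GLP-1 and -1.04 in Control for Camk2d, and 0.60 with BMS-21, 0.42 with GLP-1 and -1.18 in Control for Tmem163. Genes of the second kind held the level of 1 h with the agents, among them Man1a1, Skap1, Sdcbp2, Iqgap2, Lmo1, Scn3a, Ugt8 and Cd200. Man1a1, for example, averaged 65.2 ± 8.34 CPM at 6 h and 59.3 ± 4.08 CPM at 1 h with BMS-21, 67.8 ± 1.96 CPM at 6 h and 63.2 ± 2.93 CPM at 1 h with GLP-1, and 33.2 ± 1.52 CPM at 6 h and 61.0 ± 2.54 CPM at 1 h in Control.
The 6 that were lower in all 3 arms were Slc7a11, Hhip, Ttc39b, Met, Igfbp4 and a gene without a symbol. Slc7a11 had the lowest log2 change in Control of all 11837 features, -4.44, beside -2.83 with BMS-21 and -2.93 with GLP-1. Its mean at 6 h was 13.6 CPM with BMS-21, 13.1 CPM with GLP-1 and 4.34 CPM in Control, and at 1 h it was 97.2 CPM with BMS-21, 99.8 CPM with GLP-1 and 96.3 CPM in Control. Hhip changed by -1.39 with BMS-21, -1.21 with GLP-1 and -2.48 in Control. For Sema3a the changes were -0.45 with BMS-21, -0.16 with GLP-1 and -2.02 in Control. In these 3 genes the mean with either agent at 6 h was between that of Control at 6 h and that of its own arm at 1 h.

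**Figure D3:**
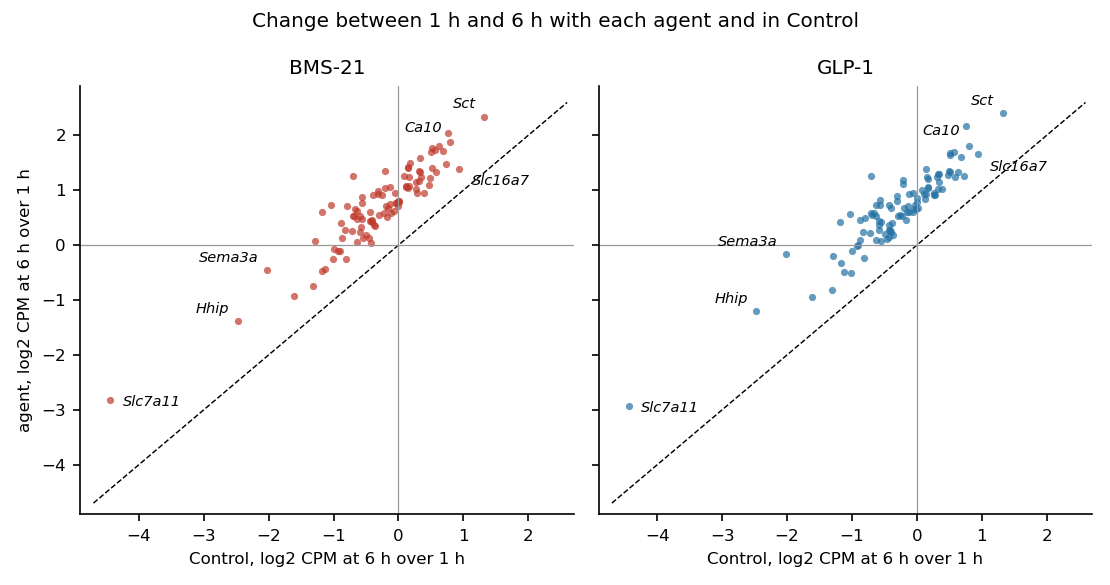
Each point is 1 of the 98 genes, the x axis is the log2 change of mean CPM at 6 h over 1 h in Control, the y axis is the same with BMS-21 or GLP-1, and on the dashed line both are equal. All points lie above the line, as the choice of the genes requires, and run from Slc7a11, far below 0 in every arm, to Sct, above 0 in every arm.

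BMS-21 and GLP-1 were also compared with each other, a contrast that the choice of the genes did not use directly. The choice did bound each agent against the same Control, which limits how far the agents can differ in these genes, most of all at 1 h. The calls among the 98 genes and the range of their differences are partly set by this. The doses differ, 1 µM of BMS-21 and 100 nM of GLP-1, so the values stand side by side and say nothing about potency. This is 1 pair of agents at 6 h and at 1 h, with p-values adjusted over all features tested at each time. At 6 h limma found 0 of the 98 genes different between the agents at an adjusted p under 0.05, and 2 of 12629 features in all (0.0158%). An unadjusted p under 0.05 was found for 15 of the 98 genes and for 800 features. The edgeR and DESeq2 tests on reads called 0 of the 98 genes as well. The estimated log2 differences of BMS-21 over GLP-1 ran from -0.35 (Bco2) to 0.32 (Lhfp). In 89 of the 98 genes the 95% interval lay within 0.5 of 0, and the widest intervals reached -0.80 and 1.18.

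The libraries carry replicate numbers, and libraries of the same number deviated together in this comparison. With the number as a block, limma called 9 of the 98 genes, all higher with BMS-21, where 1.72% of all features were called in either direction and 0.768% as higher with BMS-21. The 9 were Tmem163, Ptprk, Camk2d, Fn1, Wnt4, Tor1b, Dner, Hmox1 and Eml4. For Tmem163 the log2 difference was 0.21 ± 0.04 (SE, adjusted p = 0.000273 by limma with the block), for Ptprk 0.19 ± 0.04 (adjusted p = 0.00186) and for Camk2d 0.18 ± 0.04 (adjusted p = 0.00254), each with BMS-21 higher in 4 of 4 pairs. In libraries, Ptprk had 111, 117, 131 and 105 CPM with BMS-21, 106, 101, 103 and 97.2 CPM with GLP-1 and 65.3, 63.9, 59.3 and 54.9 CPM in Control. The other 6 had differences of 0.09 ± 0.02 (Fn1), 0.14 ± 0.04 (Wnt4), 0.11 ± 0.03 (Tor1b), 0.18 ± 0.05 (Dner), 0.30 ± 0.08 (Hmox1) and 0.10 ± 0.03 (Eml4), with adjusted p-values of 0.0202 to 0.0342 by limma with the block. BMS-21 was higher in 4 of 4 pairs in Fn1, Tor1b, Dner and Eml4 and in 3 of 4 in Wnt4 and Hmox1. With the block in edgeR, Fn1 (adjusted p = 0.0958) and Eml4 (adjusted p = 0.0617) did not pass, nor did Eml4 in limma with the block and scaling by library totals (adjusted p = 0.0638).
In libraries, Tor1b had 228, 231, 248 and 246 CPM with BMS-21, 207, 218, 232 and 226 CPM with GLP-1, Dner 51.8, 52.3, 53.0 and 50.3 CPM with BMS-21, 46.7, 41.8, 49.0 and 45.3 CPM with GLP-1 and Eml4 245, 256, 264 and 250.2 CPM with BMS-21, 228, 235, 246 and 235 CPM with GLP-1 at 6 h. The same genes stood 1.65-fold to 3.60-fold above Control with the agents. Within replicates 1 and 2 the difference was 0.11 for Tmem163, 0.03 for Wnt4 and 0.13 for Hmox1, and within replicates 3 and 4 it was 0.30 for Tmem163, 0.26 for Wnt4 and 0.46 for Hmox1. With the block, 8 genes were called without replicate 1 of both agents, 3 without replicate 2, 3 without replicate 3 and 1 without replicate 4. Of the 9, Tmem163 passed in 3 of these 4 fits, Ptprk, Camk2d, Dner and Hmox1 in 2, Fn1, Wnt4 and Tor1b in 1, and Eml4 in 0. Camk2d, whose BMS-21 replicate 3 stood highest, had a difference of 0.13 with the block without replicate 3 and did not pass. Without the block and without that 1 library, the difference was 0.12 for Camk2d, 0.08 for Wnt4 and 0.08 for Hmox1, and over the fits that each left out 1 of the 8 libraries the Hmox1 difference ran from 0.08 to 0.48.

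Among the 98 genes 65 (66.3%) had a positive difference of BMS-21 over GLP-1 at 6 h, with a median of 0.05. Among the 86 features that passed the ratio and the level at 6 h but lay outside the 1 h limit, 61 (70.9%) did, with a median of 0.06, and the block fit called 7 of them, all higher with BMS-21. Over all features 51.3% did and the median was 0.00. Every BMS-21 library lay above every GLP-1 library in Camk2d, Tmem163, Dner, Lrrk2 and a gene without a symbol, 5 of the 98 genes, as it did in 1.81% of all features, and the reverse held in 0 of them and in 2.02% of all features. Whether the 98 genes differ in this from the 86 was not tested. At 1 h limma called 0 of the 97 of these genes that could be tested, without or with the block, where 0.0% and 0.671% of all features were called. Every BMS-21 library at 1 h lay above every GLP-1 library in Slc24a3, 1 of the 98 genes (1.29% of all features), and every GLP-1 library lay above every BMS-21 library in Tor1b, Metrnl and Ugt8, 3 of them (1.22%). Unadjusted, 4 of the 97 genes and 432 features passed at 1 h, and edgeR called 0 of the genes.

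**Figure D4:**
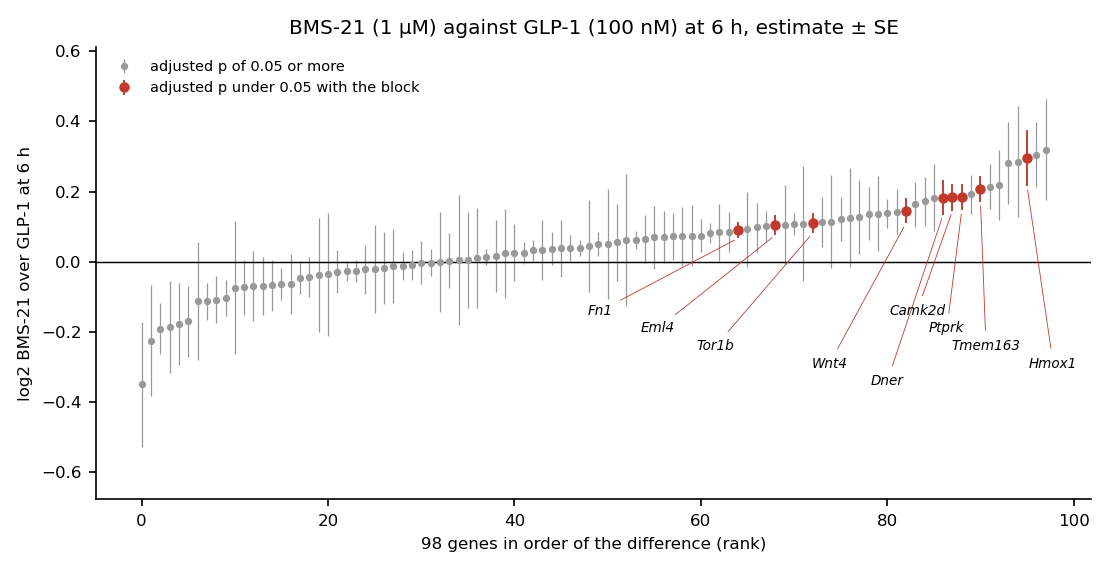
Points are the log2 differences of BMS-21 (1 µM) over GLP-1 (100 nM) at 6 h in the 98 genes, in order of size, with bars of ± 1 SE from the limma fit that has the replicate number as block. The 9 genes in red passed an adjusted p of 0.05 in that fit, all above 0, and none passed without the block.

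Known target genes of several pathways and genes with symbols like those of members were tested against Control at 6 h, if not members themselves. Most of the tested targets of CREB and its CRTC coactivators were above Control at 6 h. Of 21 tested that are not members, limma found 20 higher and 0 lower with BMS-21, where 16.8% of all features were higher and 16.8% lower, and 19 higher and 0 lower with GLP-1, where 16.2% were higher and 15.6% lower. Stc1, a secreted stanniocalcin, had log2 ratios to Control (± SE) of 2.21 ± 0.04 with BMS-21 and 2.14 ± 0.05 with GLP-1, and the phosphodiesterase gene Pde10a of 1.47 ± 0.04 with BMS-21 and 1.28 ± 0.04 with GLP-1. Inhba (-0.37 ± 0.19 with BMS-21 and -0.24 ± 0.17 with GLP-1) passed with neither agent, and Bdnf, which encodes a neurotrophin, passed with BMS-21 and, with GLP-1 (0.47 ± 0.20), only with the replicate block. Some of the list, such as Pam and Vgf, had been left out of the set by symbol, and only Ppargc1a was a member. The comparisons of the agents share their Control libraries, so they are not independent of each other.

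Smaller shares of the other lists passed. Of 7 tested Wnt and beta-catenin targets outside the set, 1 was higher and 0 lower with either agent. This was Ccnd1, cyclin D1 (2.61 ± 0.10 with BMS-21 and 2.55 ± 0.09 with GLP-1), which had been left out of the set by symbol, whereas Axin2, the feedback inhibitor of the pathway, had -0.07 ± 0.10 with BMS-21 and -0.02 ± 0.10 with GLP-1 and did not pass. The Wnt ligand Wnt4 and the effector Tcf7l2 were members. Of 13 hypoxia-inducible factor targets, 7 were higher and 1 lower with BMS-21, and 5 were higher and 1 lower with GLP-1. With the block 8 were higher and 1 lower with BMS-21, and 7 were higher and 1 lower with GLP-1. In the main fit 16.8% of all features were higher with BMS-21 and 16.2% with GLP-1. P4ha1, a collagen prolyl hydroxylase (0.66 ± 0.06 with BMS-21 and 0.56 ± 0.08 with GLP-1), was among the higher ones, and Pdk1, a kinase that holds back pyruvate dehydrogenase, was the lower one (-0.21 ± 0.06 with BMS-21 and -0.21 ± 0.06 with GLP-1). Only 2 targets of SRF and YAP were tested, Srf and Vcl, and Srf, the transcription factor itself, was higher with BMS-21 (0.16 ± 0.04). Vcl, vinculin, had -0.10 ± 0.04 with BMS-21 and -0.12 ± 0.05 with GLP-1. It passed with neither agent in the main fit, and with the block it passed as lower with both.

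Genes whose symbol has the same letters before its number as that of a member are called relatives here. A shared symbol stem need not mean a related gene. Relatives were called higher and lower about equally often. For 42 such symbol families, 220 relatives outside the set were tested with BMS-21, of which 46 were higher (20.9%) and 45 lower (20.5%). Of all features 16.8% were higher and 16.8% lower. With GLP-1 222 were tested, of which 45 were higher (20.3%) and 45 lower (20.3%), beside 16.2% and 15.6% of all features. The families named next were picked after their values were seen. Of 8 relatives of Man1a1, 5 were higher and 0 lower with both agents, such as Man2a1, the Golgi enzyme that acts later in N-glycan trimming (0.63 ± 0.04 with BMS-21 and 0.63 ± 0.05 with GLP-1). In the Adamts family 2 of 7 relatives were higher and 3 lower with both agents, for example Adamts20 (1.65 ± 0.09 with BMS-21 and 1.44 ± 0.11 with GLP-1) against Adamts16 (-1.63 ± 0.18 with BMS-21 and -1.13 ± 0.17 with GLP-1). Epha7 was lower (-0.59 ± 0.10 with BMS-21 and -0.50 ± 0.10 with GLP-1) beside the higher Epha2, the sodium channel gene Scn7a was lower (-1.21 ± 0.15 with BMS-21 and -0.97 ± 0.12 with GLP-1) beside Scn3a, and Wnt5a was lower (-0.78 ± 0.13 with BMS-21 and -0.44 ± 0.11 with GLP-1) beside Wnt4. Pak1 was lower (-0.58 ± 0.07 with BMS-21 and -0.39 ± 0.06 with GLP-1) beside Pak3. The adjusted p-values by limma of these relatives were at most 0.00358. In the Epha family 1 of 4 relatives was higher and 2 lower with both agents. Of the relatives, 1 of 5 in Scn, 1 of 4 in Wnt and 1 of 5 in Pak were lower with both agents. In these 3 families 0 were higher, and most relatives were not called.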

How the data were processed

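The 24 RNA libraries (6 groups of 4) were made with a TruSeq kit that keeps no strand information. Per the submitters' processing notes the tools were TopHat2 2.0.12, Bowtie2 2.2.3.0, SAMtools 0.1.19.0, Subread, DESeq and DESeq2 1.6.3, with genome build Rnor_5.0; the annotation version is not given in the sources used here. The deposited signal is a normalised count per gene, reads divided by a size factor of the library, in 6 tables of 8 libraries each; all values came out as whole reads within 0.001 of a read. A log2 fold change and an adjusted p-value computed by the authors stand beside these values in each table.

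The 98 genes, the pathway lists and the tests were chosen with earlier results of these data known. Tests used limma 3.58.1 (trend, robust) on log2(normalised count + 1). Features needed a mean of 10 or more in the table, with Benjamini-Hochberg adjustment over all of them and a threshold of 0.05, two-sided. Alternatives used edgeR 4.0.16 quasi-likelihood and DESeq2 1.42.0 on the recovered reads. Levels are CPM with TMM scaling over all 24 libraries. Same-numbered libraries deviated together, with correlations of 0.125 to 0.205 between BMS-21 and GLP-1 at 6 h and 0.117 to 0.242 at 1 h. The correlations were 0.130 to 0.204 between GLP-1 and Control at 6 h and 0.0738 to 0.186 between BMS-21 and Control at 6 h. The numbers come from the labels, and libraries of the same number are called pairs here. The sample names in the labels run in order through all 6 groups of a replicate number before the next number. What libraries of the same number share beyond this is not given. In every comparison the main fit did not use the numbers, and the fit with the number as a block was an alternative. On simulated data for BMS-21 against GLP-1 at 6 h limma recovered 64% of 1.25-fold, 86% of 1.5-fold, 98% of 2-fold and 100% of 3-fold changes, and 7.45% of its calls were false. Values in every library were planned for the 12 genes with a symbol and the highest mean of both log2 ratios at 6 h, and values for genes at the threshold, those with the largest change in Control, those that differ between the agents and up to 3 genes per list or family. Other genes given by library were chosen after their values were seen. Values of some members are not reported here.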

Additional observations from a re-analysis of the deposited data

Results flagged for a closer look

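Of 72 groups of 4 libraries tested (the 12 genes with the highest ratios in 6 groups), 3 held a library far from the others. Chance gives about 1 in 20 groups. Camk2d stood at 120.2 CPM in replicate 3 with BMS-21 at 6 h, where the nearest library had 100.5 CPM. Epha2 stood at 4.31 CPM in replicate 2 with BMS-21 at 1 h, where the nearest library had 6.62 CPM. Ecel1 stood at 4.41 CPM in replicate 1 of Control at 1 h, where the nearest library had 3.33 CPM.

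With the replicate number as a block, limma found 9 of the 98 genes higher with BMS-21 (1 µM) than with GLP-1 (100 nM) at 6 h. The log2 differences of BMS-21 over GLP-1 were 0.21 for Tmem163, 0.19 for Ptprk, 0.18 for Camk2d, 0.0897 for Fn1, 0.14 for Wnt4, 0.11 for Tor1b, 0.18 for Dner, 0.30 for Hmox1 and 0.10 for Eml4.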

How the results depend on the processing

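The set held 98 genes, and 65 with a ratio of at least 0.8 at 6 h in place of 0.7. With a ratio of 0.6, a 1 h limit of 0.2, a mean of at least 10 or 50, other scalings and pseudocounts, either pair of replicates, or 1 library left out, it held 68 to 144. Scaling by library totals gave 78 genes, 75 of them shared.
Between BMS-21 and GLP-1 at 6 h limma called 0 of the 98 genes and 2 features in all. The replicate block gave 9 genes and 217 features, edgeR with the block 7 and 178, and scaling by library totals with the block 8 and 223. The block without 1 replicate number gave 1 to 8 genes and 301, 103, 140 and 46 features (without 1, 2, 3 and 4), and replicates 3 and 4 alone gave 3 genes and 39 features. Replicates 1 and 2 alone gave 37 features, DESeq2 19, edgeR 0 and leaving out 1 library 0, each with 0 of the 98 genes, and a mean of at least 50 gave 1, with 0 of the 88 genes tested. At 1 h 0 features were called, but 85 with the block, 82 by edgeR with the block, 84 by library totals with the block and 51, 69, 23 and 58 by the block without 1, 2, 3 and 4, with 0 of the tested genes in each. The cause of these changes was not tested. The edgeR and library-total fits with the block, and the block fits without 1 number, were chosen after seeing the data. The block, which in every comparison joins libraries that share a replicate number in the labels, gave 138 (BMS-21) and 145 (GLP-1) calls in the lists and families. Without it there were 121 and 116.
In simulated data of this size 64% of 1.25-fold changes were called, so smaller differences between the agents can be missed. Those data held 50 changed features at each fold and no effect shared by libraries of the same number. The fit of the real data without the block called 2 features, and the adjustment is stricter where fewer features are called. The share found in the real comparison can thus be lower than 64%.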
